A study of Mus musculus with 22 samples.

Results

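The genes described here are 9 genes of MHC class I antigen presentation and the immunoproteasome, H2-K1, H2-D1, B2m, Tap1, Tap2, Tapbp, Psmb8, Psmb9 and Psmb10, measured in gastrocnemius muscles from 22 ischemic mice (C57BL/6N males, 8 to 12 weeks old). They were chosen by name, and every probe whose platform gene symbol is one of these 9 names was used, which gave 17 probes of the 38563 on the array and 9 of the 18524 genes with a symbol. Hindlimb ischemia was induced in all mice by removal of the femoral artery, the labels name the mice non-diabetic, and on day 5 each mouse received 12 mg/kg of a locked nucleic acid oligonucleotide by intraperitoneal injection. In the 11 ANTI-210 mice the oligonucleotide was directed against miR-210, and in the 11 SCR mice it was a scrambled control. Muscles were taken on day 7, and the RNA of each mouse was hybridized to its own array (Illumina MouseWG-6 v2), so each mouse is 1 replicate. All mice of both groups were ischemic, and no muscle without ischemia was measured on these arrays. The question put to these genes was whether their RNA differed between ANTI-210 and SCR muscles, in which mice, and together with which other genes.

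MHC class I molecules show peptides from proteins made inside a cell to CD8 T cells. The proteasome cuts the proteins, the transporter formed by Tap1 and Tap2 carries the peptides into the endoplasmic reticulum, and tapasin, encoded by Tapbp, holds the empty class I molecule at the transporter until a peptide is bound. H2-K1 and H2-D1 encode the classical class I heavy chains of the mouse, and B2m encodes β2-microglobulin, the light chain that all class I molecules share. Psmb8, Psmb9 and Psmb10 encode the inducible catalytic subunits of the immunoproteasome, which take the places of the standard subunits encoded by Psmb5, Psmb6 and Psmb7. Interferon-γ is the best known inducer of these genes. Resting muscle fibres carry little class I on their surface, whereas leukocytes that enter injured muscle carry much.

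The microRNA that ANTI-210 is directed against is shown first, since it defines the comparison. Its seed, bases 2 to 8, is in capitals, and the sequence of 22 bases is that of RefSeq (GRCm38.p6, chr7:141221407-141221428, minus strand).
mmu-miR-210-3p: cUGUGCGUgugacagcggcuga

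Stretches before transcript starts of 5 of the 9 genes are shown. They hold letters known from the control of class I genes by interferon and by the class I transactivation complex. The stretches are from RefSeq promoter windows (GRCm38.p6), read in the direction of transcription. Each lies upstream of the transcript start of its window. The H2-K1 gene reaches to position 34000619 in RefSeq, so its stretch lies inside the annotated gene. The H2-K1 stretch is chr17:34000334-34000461 on the minus strand, and the H2-D1 stretch is chr17:35262920-35263048 on the plus strand. The B2m stretch is chr2:122147545-122147641 on the plus strand. The last stretch, chr17:34187331-34187555 in the direction of Tap1, is the whole of the 225 bases between the starts of Tap1 and Psmb9, which are transcribed away from each other. Capitals mark the motifs searched, which are GAAANNGAA and its reverse spacing GAANNGAAA (core letters of the interferon-stimulated response element), GGGNNTTCC (an NF-kB site), TGACG (letters of the X2 box) and CCAAT (the Y box), each on either strand.
H2-K1: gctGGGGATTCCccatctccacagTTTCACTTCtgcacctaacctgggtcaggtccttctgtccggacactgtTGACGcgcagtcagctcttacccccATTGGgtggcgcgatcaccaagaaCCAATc
H2-D1: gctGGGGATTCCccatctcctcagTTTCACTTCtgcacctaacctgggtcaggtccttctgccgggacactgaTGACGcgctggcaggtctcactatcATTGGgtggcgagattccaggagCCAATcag
B2m: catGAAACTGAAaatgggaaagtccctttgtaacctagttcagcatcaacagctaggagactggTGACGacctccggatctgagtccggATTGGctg
Tap1 and Psmb9: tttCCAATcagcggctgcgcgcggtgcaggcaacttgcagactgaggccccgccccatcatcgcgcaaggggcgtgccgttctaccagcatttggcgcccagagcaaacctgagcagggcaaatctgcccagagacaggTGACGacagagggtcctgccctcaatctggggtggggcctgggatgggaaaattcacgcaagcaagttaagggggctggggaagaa

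The promoters of H2-K1 and H2-D1 were near copies of each other, with 169 of 204 aligned bases identical (82.8%), and they held the same 5 matches in the same order. CCAAT lay within the 250 bases before the start in 6 of the 8 genes with a window, H2-K1, H2-D1, B2m, Tap1, Tapbp and Psmb9, and in 33.8% of 32851 mouse promoter windows of the same length. TGACG lay in 5 of the 8, H2-K1, H2-D1, B2m, Tap1 and Psmb9, and in 17.8% of all windows. GAAANNGAA was found in B2m (7.13% of all windows) and GAANNGAAA in H2-K1 and H2-D1 (6.31%). GGGNNTTCC was found in H2-K1 and H2-D1 (4.98%), and TTCNNNGAA, the core of a STAT site, in Psmb8 (7.02%). These are matches of letters, and Tap2 had no window. B2m lies on chromosome 2 and Psmb10 on chromosome 8. The other 7 genes lie on chromosome 17, where Psmb9, Tap1, Psmb8 and Tap2 follow each other in this order between positions 34182030 and 34216321.

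The values are log2 intensities, quantile normalized by the authors, and a difference is the ANTI-210 mean less the SCR mean in log2 units, from limma fitted over all probes. Each gene is given by its brightest probe over all mice, and its further probes are given beside it. Probes with a mean under 6 lie close to the floor of the array, which was true of 62.6% of all probes and, among the 9 genes, of Tapbp. A level of one probe cannot be set against that of another probe, so only differences between mice are compared. No pair of arrays held identical values, with correlations between 0.947 and 0.997. Replicate numbers 1 to 3 of both groups were known from an earlier analysis of these arrays to lie apart from numbers 4 to 11 on a principal component. The labels name no batch, so results are also given within each set.

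Tap2 rose with ANTI-210, and the other 8 genes did not pass the threshold. The difference was above 0 for all 9 genes, at a median of 0.29, whereas over all 18524 genes the median difference was -0.0036 and 47.8% of differences were above 0. At the threshold the methods give for genes, an unadjusted p under 0.05, 1 of the 9 genes was higher and 0 were lower, against 1.45% of all genes that were higher. After Benjamini-Hochberg adjustment over all probes, 0 of the 9 passed in limma, and 2 genes of the whole array did. In a bulk muscle, fewer cells of a type and less RNA per cell cannot be told apart.

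**Figure D1:**
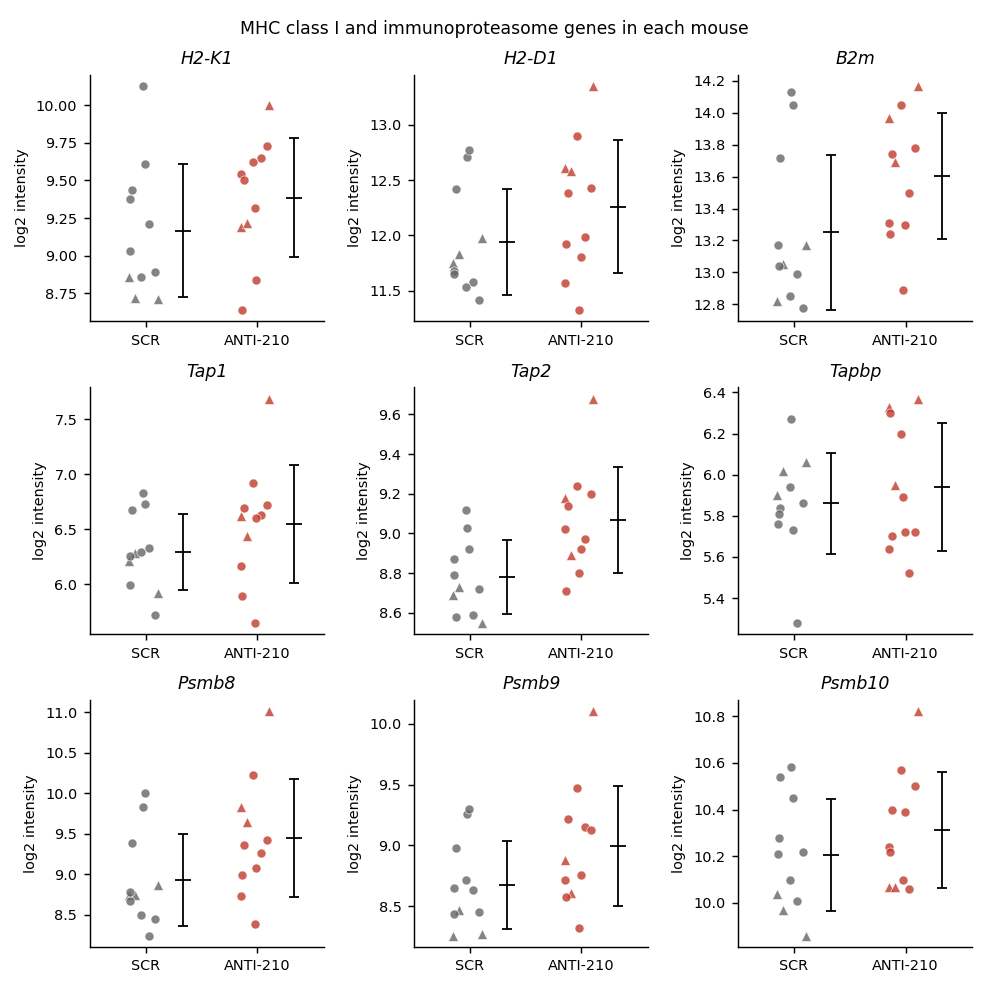
Log2 intensity (y axis) of the 9 genes in each SCR (grey) and ANTI-210 (red) mouse, with triangles for replicate numbers 1 to 3 and circles for numbers 4 to 11; the bars give the mean and SD of 11 mice, and the y axes do not start at 0. ANTI-210 replicate 3 is the highest mouse of its group in all 9 panels, and the groups overlap in each.

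The classical heavy chains and their light chain overlapped between the groups. H2-K1 ran from 8.71 through a median of 9.03 to 10.13 in SCR muscles and from 8.64 through 9.50 to 10 in ANTI-210 muscles. The highest and the lowest ANTI-210 mouse both lay below their SCR counterparts, and 9 of 11 ANTI-210 mice lay above the SCR median. The mean was 9.17 ± 0.44 (SD, n = 11) in SCR and 9.39 ± 0.40 (SD, n = 11) in ANTI-210, a difference of 0.22 (standard error 0.17, unadjusted p = 0.219, limma). H2-D1 ran from 11.42 through 11.75 to 12.77 in SCR muscles and from 11.33 through 12.38 to 13.35 in ANTI-210 muscles. It had 9 of 11 ANTI-210 mice above the SCR median and 2 above the highest SCR mouse, with a difference of 0.32 (standard error 0.22, unadjusted p = 0.164). B2m ran from 12.78 through 13.05 to 14.13 in SCR muscles and from 12.89 through 13.69 to 14.17 in ANTI-210 muscles. In B2m 10 of 11 ANTI-210 mice lay above the SCR median, and the difference was 0.35 (standard error 0.18, unadjusted p = 0.0668).

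The further probes of these genes gave like values where they were bright. The 2 dimmer H2-K1 probes gave differences of 0.25 and 0.17, and those of H2-D1 gave 0.32 and 0.27. The second B2m probe gave 0.35 and the third, which lay at the floor with a mean of 4.47, gave 0.02. Heavy chain genes are near-identical paralogs, and a probe for one of them may also read RNA of H2-Q or H2-T genes; probe sequences were not used here.

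Among the genes that load peptides, Tap2 passed the threshold. Tap2 ran from 8.55 through a median of 8.73 to 9.12 in SCR muscles and from 8.71 through 9.02 to 9.68 in ANTI-210 muscles. The groups overlapped, with 10 of 11 ANTI-210 mice above the SCR median, 5 above the highest SCR mouse and 4 SCR mice below the lowest ANTI-210 mouse. Its mean rose from 8.78 ± 0.19 (SD, n = 11) to 9.07 ± 0.27 (SD, n = 11), a difference of 0.29 (standard error 0.095, 95% interval 0.09 to 0.48, 1.22-fold, unadjusted p = 0.00643, adjusted p = 1 over all probes, limma). A two-sided permutation test of the same values gave p = 0.00695. Tap2 passed the threshold with each of the 22 mice left out in turn (highest unadjusted p = 0.0130), but not within numbers 4 to 11 (difference 0.17, unadjusted p = 0.0823).

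Tap1, the partner of Tap2 in the transporter, ran from 5.72 through 6.28 to 6.83 in SCR muscles and from 5.65 through 6.62 to 7.69 in ANTI-210 muscles. Both the lowest and the highest of its 22 values were ANTI-210 mice, and the difference was 0.25 (standard error 0.19, unadjusted p = 0.190). Tapbp, read by a dim probe with a mean of 5.90, ran from 5.28 through 5.86 to 6.27 in SCR and from 5.52 through 5.89 to 6.37 in ANTI-210. The medians nearly coincided, and the difference was 0.08 (standard error 0.12, unadjusted p = 0.502).

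Of the inducible proteasome subunits Psmb8 had the widest spread over the 22 mice, 2.77, which was also the widest of the 9 genes, and Psmb10 the narrowest, 0.96. Psmb8, which encodes the subunit that replaces Psmb5, ran from 8.24 through 8.74 to 10 in SCR muscles and from 8.38 through 9.36 to 11.01 in ANTI-210 muscles. ANTI-210 replicates 3 and 11 lay above every SCR mouse, and 9 of 11 lay above the SCR median. The mean was 8.93 ± 0.57 (SD, n = 11) in SCR and 9.45 ± 0.73 (SD, n = 11) in ANTI-210, the largest difference of the 9 genes at 0.52 (standard error 0.27, 1.43-fold, unadjusted p = 0.0659). Its dimmer probe gave 0.31 (unadjusted p = 0.0540). Psmb9, which replaces Psmb6, ran from 8.26 through 8.63 to 9.30 in SCR muscles and from 8.32 through 8.88 to 10.10 in ANTI-210 muscles. Its upper ANTI-210 values reached past those of SCR while the lowest values nearly coincided, with a difference of 0.32 (standard error 0.18, unadjusted p = 0.0889). Psmb10, which replaces Psmb7, ran from 9.86 through 10.21 to 10.58 in SCR muscles and from 10.06 through 10.24 to 10.82 in ANTI-210 muscles. Its medians lay close together, and the difference was 0.11 (standard error 0.10, unadjusted p = 0.299), with 0.12 from its second probe. Permutation tests of the 8 genes other than Tap2 gave p between 0.0750 and 0.519.

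The same mice were high for most of the genes. ANTI-210 replicate 3 held the highest value of its group for all 9 genes, and ANTI-210 replicate 6 the lowest for 5, H2-D1, B2m, Tap1, Psmb8 and Psmb9. In SCR the highest value was that of replicate 6 for 5 genes, of replicate 7 for 3 and of replicate 11 for Tap2. Leaving out 1 mouse moved the count past the threshold between 1 and 4. It was 4 (B2m, Tap2, Psmb8 and Psmb9) without SCR replicate 6, SCR replicate 7 or ANTI-210 replicate 6, where 1.97%, 1.82% and 1.7% of all genes were higher. It was 2 without SCR replicate 8 (B2m and Tap2) or ANTI-210 replicate 5 (Tap2 and Psmb8), where 1.59% and 1.5% of all genes were higher.

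**Figure D2:**
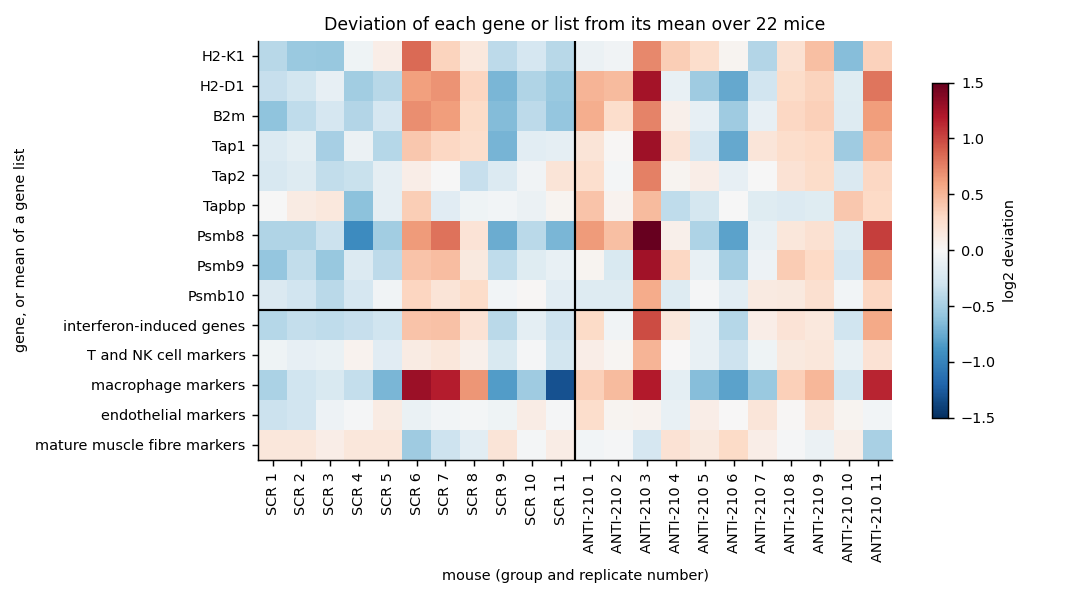
Log2 deviation from the mean over 22 mice (colour, blue below and red above the mean) of each of the 9 genes, and of 5 gene lists as the mean of their genes, in each mouse (x axis). SCR replicates 6 and 7 and ANTI-210 replicates 3 and 11 are high for most of the 9 genes and for the interferon-induced genes and the macrophage markers, and low for the markers of mature muscle fibres.

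Between the 2 sets of replicate numbers the size of the differences varied. In numbers 1 to 3 the 3 ANTI-210 mice lay above the 3 SCR mice for 8 of the 9 genes, all but Tapbp, which was so for 19.1% of all genes. The differences there were 1.38 for Psmb8, 0.99 for H2-D1, 0.93 for B2m, 0.86 for Psmb9, 0.78 for Tap1, 0.71 for H2-K1, 0.59 for Tap2, 0.36 for Psmb10 and 0.22 for Tapbp. An exact permutation test, two-sided, gave p = 0.1 for the 8 genes, the smallest that 3 mice against 3 allow, and p = 0.3 for Tapbp. With limma in these 6 mice, 5 of the 9 genes passed the threshold (H2-K1, H2-D1, B2m, Tap2 and Psmb8), against 17.6% of all genes that were higher. Of these, B2m (adjusted p = 0.0224) and H2-D1 (adjusted p = 0.0367) passed after adjustment over all probes in limma, as did 9.33% of all genes in the same direction.

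In numbers 4 to 11 the groups of 8 mice lay close together for all 9 genes. The differences were 0.20 for Psmb8, 0.17 for Tap2, 0.14 for B2m, 0.12 for Psmb9, 0.07 for H2-D1 and 0.06 for Tap1, and those of H2-K1 (0.04), Tapbp (0.03) and Psmb10 (0.01) were smaller still. Exact permutation tests gave p = 0.0967 for Tap2 and p between 0.522 and 0.919 for the others. In limma 0 of the 9 passed at an unadjusted p under 0.05, against 1.18% of all genes that were higher.

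The difference between the sets was tested as an interaction of treatment and set in limma. Psmb8 passed, with a difference larger by 1.18 in numbers 1 to 3 (standard error 0.55, unadjusted p = 0.0433, adjusted p = 0.448). The other 8 genes had unadjusted p between 0.0507 for Tap2 and 0.412 for Tapbp, so 1 of 9 passed, against 5.82% of all genes with an interaction above 0. No probe passed after adjustment over all probes in limma, while 2261 genes had an unadjusted p under 0.05. The sets were drawn from these same arrays. The macrophage markers moved with this split: their mean deviation was -0.47 to -0.23 in the 3 SCR mice and 0.36 to 1.18 in the 3 ANTI-210 mice of numbers 1 to 3, and their treatment difference was 1.01 there and 0.02 in numbers 4 to 11. The fibroblast markers differed by 0.80 and -0.02 in these sets, the markers of regenerating fibres by 0.71 and -0.10, the T and NK cell markers by 0.31 and 0.03 and those of mature fibres by -0.25 and 0.08. The part of these cell types in the interaction was not tested.

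**Figure D3:**
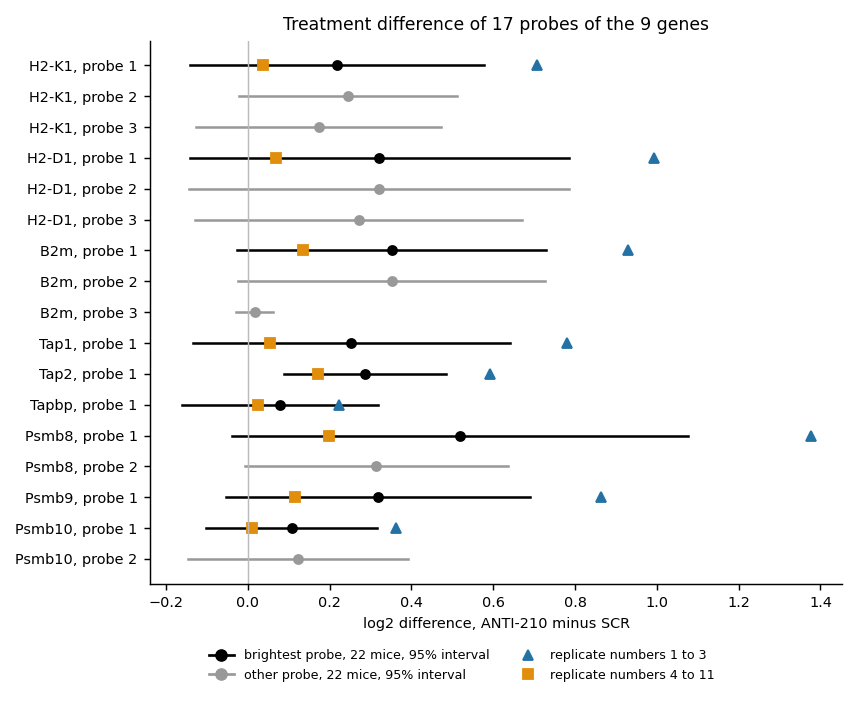
Log2 difference, ANTI-210 minus SCR (x axis), of the 17 probes with the 95% interval from limma over 22 mice (black for the brightest probe of a gene, grey for its other probes), and of the brightest probe within numbers 1 to 3 (blue triangles) and 4 to 11 (orange squares). The blue triangle lies to the right of the orange square for all 9 genes, and of the 17 intervals only that of Tap2 lies wholly above 0.

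The count of genes past the threshold changed with how variation between arrays was modelled. With the set of replicate numbers as a block it stayed at 1 (Tap2), against 1.57% of all genes that were higher. With array weights, which let arrays that fit less well count for less, 6 of the 9 genes passed (H2-D1, B2m, Tap1, Tap2, Psmb8 and Psmb9), against 5.31% of all genes that were higher. The lowest weights were those of SCR replicates 6 (0.38) and 7 (0.45), which held the highest SCR values of all these genes but Tap2. ANTI-210 replicates 11 (0.66) and 6 (0.68) followed. With the first principal component of the arrays, which held 63.6% of the variance, as a covariate, 4 passed (H2-D1, B2m, Tap2 and Psmb8), against 3.3%. With the mean of the macrophage markers as a covariate, a setting added after the data were seen, 3 passed (B2m, Tap2 and Psmb8), against 3%. In that last fit the difference of B2m was 0.19 (unadjusted p = 0.00455) and that of Psmb8 was 0.30 (unadjusted p = 0.0219). After adjustment over all probes 0 of the 9 passed in limma in these 4 fits.

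Other genes of the pathway were read from lists. The non-classical heavy chains are relatives of H2-K1 and H2-D1 with narrower expression or special ligands. Their list also holds the class I-like genes Hfe, Fcgrt, Mr1 and Cd1d1. Of the 14 measured, 4 were higher, against 1.45% of all genes, 0 were lower, and the median difference was 0.14. As with H2-K1 and H2-D1, a probe of one heavy chain may also read RNA of another. The 4 may therefore not be separate results. A further 4 of the 14 lay near the floor. H2-Q8 rose from 6.46 ± 0.30 to 6.85 ± 0.28 (SD, n = 11 each), a difference of 0.39 (unadjusted p = 0.00418). H2-Q6 rose by 0.41 (unadjusted p = 0.00982), H2-T10 by 0.31 (unadjusted p = 0.0181) and H2-Q7 by 0.32 (unadjusted p = 0.0361). Of the 10 measured genes that trim or load peptides, 1 was higher, against 1.45% of all genes, and 0 were lower, with a median of 0.03. It was Tapbpl, a tapasin-related editor of class I peptides, which rose by 0.21 (unadjusted p = 0.0347). All of these had adjusted p = 1 over all probes in limma, and none of these 5 genes passed within numbers 4 to 11 at an unadjusted p under 0.05. The mean difference of the non-classical heavy chains was 0.35 in numbers 1 to 3 and 0.09 in numbers 4 to 11.

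The standard proteasome and its activators had differences near 0. Of 13 measured standard subunits of the 20S core, 1 was higher, against 1.45% of all genes, and 0 were lower, with a median of 0.0073. The gene that passed was Psma2, a structural subunit, at 0.10 (unadjusted p = 0.0355). The standard catalytic subunits Psmb5, Psmb6 and Psmb7 had differences of -0.05 (unadjusted p = 0.396), 0.06 (unadjusted p = 0.206) and 0.07 (unadjusted p = 0.342). Of the 5 measured activators and assembly factors none passed at an unadjusted p under 0.05 in limma, and the median was 0.02. Psme1 and Psme2, which encode the interferon-inducible PA28 activator, each had a difference of 0.10 (unadjusted p = 0.210 and 0.226).

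Of 18 measured genes of interferon signalling and class I transcription, 0 were higher and 1 was lower, with a median of 0.06. Over all 18524 genes, 269 were higher and 373 lower. The gene that fell was Rfxank, a subunit of the factor that binds the X box, which fell by 0.26 (unadjusted p = 0.0141) on a probe near the floor. Irf1, a transcription factor induced by interferon-γ, had 10.38 ± 0.50 in SCR and 10.78 ± 0.45 in ANTI-210 (SD, n = 11 each), a difference of 0.40 (unadjusted p = 0.0540). Nlrc5, the transactivator of class I genes, also had a difference of 0.40 (unadjusted p = 0.113). The probe of Ifng, which encodes interferon-γ, lay near the floor with a mean of 4.62.

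Interferon-induced genes outside the pathway showed a median difference of 0.29, like that of the 9 genes. Of the 35 measured, 32 had a difference above 0, against 47.8% of all genes. Of the 35, 6 were higher, against 1.45% of all genes, 0 were lower, and 11 lay near the floor. The guanylate-binding protein genes Gbp3 and Gbp2 rose by 0.57 (unadjusted p = 0.00332) and 0.60 (unadjusted p = 0.0155). The antiviral gene Rsad2 rose by 0.55 (unadjusted p = 0.0110), and Irgm1, an immunity-related GTPase gene, by 0.31 (unadjusted p = 0.0368). The mean of the list differed by 0.79 in numbers 1 to 3 and by 0.10 in numbers 4 to 11. Within numbers 4 to 11, 0 of its genes passed at an unadjusted p under 0.05 in limma.

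Markers of the cells a muscle can hold were read beside these genes. Their counts stand against 269 genes higher (1.45%) and 373 lower among all 18524. The macrophage markers had a median difference of 0.32 with 15 of 16 above 0, but 0 of 16 passed at an unadjusted p under 0.05 in limma. Lyz2, a lysozyme gene of macrophages, had the smallest p of them, with 0.51 (unadjusted p = 0.275). Their summed linear intensity ran from 8415 to 59834 in SCR and from 11406 to 59139 in ANTI-210 muscles, so the groups spanned nearly the same range. Of 13 measured T and NK cell markers 10 lay near the floor, among them Cd8a with a mean of 4.49, and 1 was higher, Cd3d, by 0.37 (unadjusted p = 0.0214). Cd8b1, which encodes the other chain of the CD8 receptor, was read at a mean of 11.5, far from Cd8a. It varied little between mice (SD 0.13 in SCR and 0.10 in ANTI-210). What its probe reads was not tested, so its level is no measure of CD8 T cells here.

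The endothelial markers had 5 of 14 higher, against 1.45% of all genes, and 0 lower. Their median difference was 0.15, and their mean difference was 0.35 in numbers 1 to 3 and 0.05 in numbers 4 to 11. The markers that were higher were led by Emcn at 0.21 (unadjusted p = 0.00526) and Cdh5 at 0.25 (unadjusted p = 0.00956). With the endothelial markers as a covariate, also added after the data were seen, 1 of the 9 genes, Tap2, passed as before, against 1.09% of all genes that were higher. Of the 18 measured markers of mature muscle fibres 0 passed at an unadjusted p under 0.05 in limma, with a median of -0.0027. Mylpf, a myosin light chain gene of fast fibres, had the smallest p of them (0.04, unadjusted p = 0.110) at a mean of 15.3, near the top of the scale. The smallest unadjusted p was 0.332 for Cd22 among 4 B cell markers, 0.221 for Clec9a among 9 dendritic cell markers, 0.204 for Lum among 6 fibroblast markers and 0.369 for Myog among 7 markers of regenerating fibres. Of 9 neutrophil markers 1 was lower, Mmp8, by -0.05 (unadjusted p = 0.0401) on a probe near the floor.

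Inducible and standard subunit RNA were compared within each mouse, as the log2 value of the inducible subunit minus that of its standard counterpart. Only the change of this quantity between mice has a meaning, since the probes differ. It can show unequal change of the RNAs only, which in bulk muscle can come from different cells. Exchange of subunits within proteasomes was not measured. Psmb5 varied little (SD 0.11 in SCR and 0.14 in ANTI-210), so Psmb8 minus Psmb5 mostly followed Psmb8. Psmb8 minus Psmb5 ran from -3.42 to -1.67 in SCR and from -3.28 to -0.65 in ANTI-210 muscles, with 9 of 11 ANTI-210 mice above the SCR median. The difference was 0.57 (standard error 0.29, 95% interval -0.03 to 1.16), with a permutation p of 0.0610 and 0.183 after adjustment over the 3 pairs. It was 1.37 in numbers 1 to 3 and 0.27 in numbers 4 to 11 (exact permutation p = 0.430). Psmb9 minus Psmb6 differed by 0.26 (standard error 0.19, 95% interval -0.14 to 0.65, permutation p = 0.196, adjusted 0.294), and it was 0.75 in numbers 1 to 3 and 0.07 in numbers 4 to 11. Psmb10 minus Psmb7 differed by 0.04 (standard error 0.16, 95% interval -0.29 to 0.36, permutation p = 0.813), and it was 0.38 in numbers 1 to 3 and -0.09 in numbers 4 to 11. None of the 3 pairs passed.

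**Figure D4:**
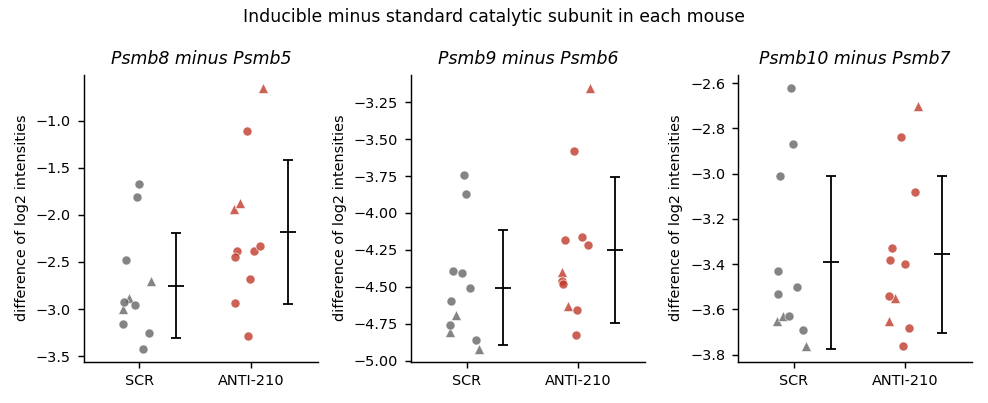
Difference of the log2 intensities of each inducible catalytic subunit and its standard counterpart (y axis) in each SCR (grey) and ANTI-210 (red) mouse, with triangles for replicate numbers 1 to 3, circles for numbers 4 to 11, and bars for the mean and SD of 11 mice. The values overlap between groups in all 3 panels, and ANTI-210 replicate 3 is the highest ANTI-210 mouse in each.

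Across mice the 9 genes varied together, except Tapbp, which was read by a dim probe near the floor (mean 5.90). Deviations from the group means were correlated over the 22 mice for 36 pairs of genes and for each gene with 5 marker lists, 81 relations in all, with p-values from permutation within groups adjusted over the 81. Over the 28 pairs without Tapbp, Pearson's r ran from 0.54 to 0.97 (median 0.73) and Spearman's rho from 0.43 to 0.97 (median 0.66). All 28 passed at an adjusted p under 0.05 by r, with unadjusted permutation p from 1e-05, the smallest these permutations can give, to 0.00795, and 26 passed by rho. Shared variation was common on these arrays: an r of 0.54 or more was reached by 8.38% of all pairs of the 18524 genes and by 23.2% of pairs among the 8828 genes with a mean of 6 or more. The closest pair was H2-D1 and Psmb8 (r = 0.97, rho = 0.97), which held 0.97 both without the 2 most distant mice and within numbers 4 to 11. Tap1 and Psmb9, which share the stretch between their starts, had r = 0.92 and rho = 0.91, and r = 0.93 within numbers 4 to 11. H2-D1 and Psmb8 share no such stretch, and its part in these correlations was not tested. The 8 pairs with Tapbp had r from -0.03 to 0.52, with 2 past the threshold by r and 0 by rho.

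The size of the correlations depended on which mice were used. Without the 2 mice farthest from the median, the median r of the 28 pairs was 0.59, and within numbers 4 to 11 it was 0.73. In the 13 mice below 0 on the first principal component it was 0.26 (from -0.33 to 0.88), and in the 9 mice above 0 it was 0.81 (from 0.49 to 0.997). The component was computed from these same arrays, so a cut on it narrows the range over which the genes vary. Of the SCR mice only replicates 6, 7 and 8 lay above 0. The change of r between these parts was not tested.

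Shared variation was common on these arrays, and the share of all genes that pass with each marker list was not computed. The counts with the lists therefore do not set the 9 genes apart from other genes. The interferon-induced genes had r from 0.31 to 0.95, and 8 of 9 genes passed by r. The T and NK cell markers, of which 10 of 13 lay near the floor, had r from 0.21 to 0.90, also with 8 of 9 past. The macrophage markers had r from 0.36 to 0.95, with 7 of 9 past. B2m and H2-D1 had the highest r with the macrophage markers, at 0.95 each, while Tap2 had 0.43 (permutation p = 0.0445, adjusted 0.0572) and Tapbp 0.36. The mature muscle fibre markers had negative r with all 9 genes, from -0.90 to -0.46, all past the threshold by r and 8 by rho. The endothelial markers had r from -0.08 to 0.18, with 0 of 9 past by r or by rho. In the 13 mice below 0 on the principal component the median r of the 9 genes was 0.48 with the interferon-induced genes and 0.02 with the macrophage markers. In the 9 mice above 0 these medians were 0.91 and 0.78. The limits given above for this cut hold here too.

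**Figure D5:**
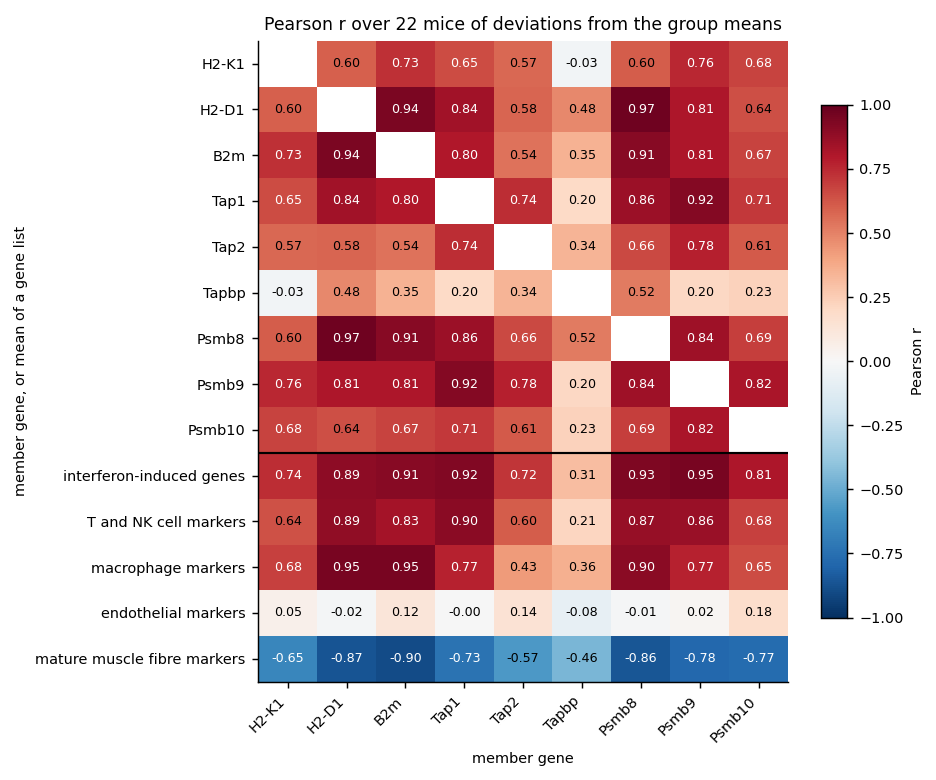
Pearson's r over 22 mice (colour and printed value) of deviations from the group means, for each pair of the 9 genes and, below the line, for each gene with the mean of 5 gene lists. The row and column of Tapbp, read by a dim probe, are pale (-0.03 to 0.52), the endothelial row is near 0, and the fibre row is blue throughout (-0.90 to -0.46).

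The genes outside the group whose deviations were most like the mean of the 9, over 22 mice, were H2-T23 (r = 0.98), a non-classical heavy chain, and Irf9 (r = 0.97), a part of the factor that binds the interferon-stimulated response element. They were followed by Plac8 (r = 0.96), Casp1, the inflammatory caspase gene (r = 0.95), H2-Q7 (r = 0.95) and Ifitm1, an interferon-induced membrane protein gene (r = 0.95). Their treatment differences lay between 0.21 for Irf9 and 0.35 for Casp1. Of the 6, H2-Q7 alone passed the threshold.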

How the data were processed

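Total RNA (200 ng per muscle, RNA integrity number above 7) was labelled and hybridized to Illumina MouseWG-6 v2 arrays. Per the methods, the authors exported bead summaries from GenomeStudio, applied quantile normalization, and used beadarray to remove probes by expression and quality; neither versions nor thresholds are stated in these sources. The deposited values run from 4.35 to 15.4 and were read as log2. Quantile normalization gives each array the same distribution, so a shift of most genes would not be seen. Gene symbols came from the platform annotation (32093 probes with 1 symbol, 16 with several, 6454 with none; 32035 with an Entrez ID, 0 updated). Further columns of values numbered 0.

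Differences were tested with limma 3.58.1 (lmFit, eBayes) in R 4.3.3 on all probes, two-sided, with Benjamini-Hochberg adjustment over all probes. Permutation tests used 100000 resamples, or all regroupings within sets of replicate numbers (scipy 1.17.1). Scripts were tested on simulated data. Groups came from the sample labels. The genes, lists, tests and alternatives were chosen with earlier results of these data known. Of each pathway list the up to 4 genes with the smallest p past the threshold are named, or the smallest p where none passed, of cell type lists up to 2, besides chosen regulators and the 6 genes most like the group; H2-D1 and Psmb8 among correlated pairs, and Ifng, Cd8a and Cd8b1, were chosen after their values were seen. Alternatives were other normalizations, variance settings, array weights, covariates, a filter on dim probes, the mean of all probes, a replicate block, and leaving out mice. Listed genes without a probe here were not used here. The sources used here do not say which mice shared a chip.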

Additional observations from a re-analysis of the deposited data

Results flagged for a closer look

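The treatment difference of Psmb8 differed between the sets of replicate numbers. It was larger by 1.18 in numbers 1 to 3 (10.16 in ANTI-210 and 8.78 in SCR, 3 mice each) than in numbers 4 to 11 (9.18 and 8.98, 8 mice each). The interaction in limma had an unadjusted p of 0.0433 and an adjusted p of 0.448. It was the only 1 of the 9 genes to pass, against 5.82% of all 18524 genes with an interaction above 0. In either direction 2261 genes passed. The sets were drawn from these same arrays, and the other settings use the same arrays too. Under the 5 other settings run for it, the value lay between 0.90 and 1.2 with unadjusted p between 0.0371 and 0.0482, and the adjusted p was 0.408 or more.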

How the results depend on the processing

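Precision is limited by 11 arrays per group and, for Tapbp, by a dim probe. Under the 37 other settings run, all 333 differences of the 9 genes stayed above 0. These settings refit the same arrays, and several cannot change the difference. The shared sign is therefore not independent support. Of the 333, 25 passed the threshold where the 22-mouse fit did not, and Tap2 within numbers 4 to 11 was the 1 that no longer passed. Of the 9 genes 1 passed the threshold in the 22-mouse fit, 6 with array weights, 4 with the principal component, 3 with the macrophage covariate, 5 within numbers 1 to 3 and 0 within numbers 4 to 11, and 1 to 4 with each mouse left out. Of the 95 pathway and interferon-induced genes 13 passed in either direction, where 269 of all 18524 genes were higher and 373 lower. With array weights 37 passed (984 higher and 936 lower of all genes), and with the principal component 26 (612 and 603). With the endothelial covariate 5 passed (201 and 308). It was 44 within numbers 1 to 3 (3260 and 3160) and 0 within numbers 4 to 11 (218 and 251). With each mouse left out 7 to 24 passed (216 to 364 higher and 278 to 509 lower). The labels do not say whether equal replicate numbers pair the mice. Deviations correlated above 0.1 in 4 of 11 pairs (from -0.66 to 0.64), which cannot decide how the mice were handled. With the replicate block 1 of the 9 genes passed (Tap2, unadjusted p = 0.0230, limma) and 8 pathway genes did. In that fit 260 of all genes were higher and 381 lower. Of the 9 genes 1 had an interaction of treatment and set above 0, against 5.82% of all genes. The count was 2 with cyclic loess and 3 with trended, robust eBayes. Psmb8 minus Psmb5 passed unadjusted at 0.57 with cyclic loess (permutation p = 0.0499), 0.43 with the principal component (p = 0.00613) and 0.46 with the mean of all probes (permutation p = 0.0465), and lay between 0.41 and 0.68 with each mouse left out, past the threshold when SCR replicate 6, SCR replicate 7, ANTI-210 replicate 5 or ANTI-210 replicate 6 was left out. Psmb10 minus Psmb7 turned to -0.039 with the principal component and -0.091 within numbers 4 to 11, and lay between -0.028 and 0.11 with each mouse left out, below 0 without ANTI-210 replicate 3 or 11. The cause of these changes was not tested.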
